A study of Mus musculus with 36 samples.

Results

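H2AK119ub1, the ubiquitylated form of histone H2A, was profiled by chromatin immunoprecipitation and sequencing (ChIP-seq) in neurospheres, free-floating cultures of neural progenitors grown from the hippocampus of newborn mice (P0). Of the 36 samples of the study, 4 belonged to this comparison: 2 control libraries (Ctrl 1 and Ctrl 2), labelled Kdm2b fl/+ or Kdm2b fl/fl, and 2 conditional knockout libraries (cKO 1 and cKO 2), labelled Kdm2b Emx1-delta-CxxC. In cKO mice, Emx1-Cre, which is active in the dorsal telencephalon, deletes the floxed exon that encodes the CxxC zinc finger, so the remainder of KDM2B can still be made. All 4 cultures were kept with FGF2 and EGF and passaged before chromatin was taken. The labels do not say how many pups stood behind a library or whether the libraries of a group were separate cultures, so p-values measure the spread between these libraries, which may be technical. Enriched stretches (islands) had been called by the authors in each library, and every autosomal island was used: 43160 and 20920 in Ctrl and 45143 and 39089 in cKO. They were read over 20807 promoters, taken as 2 kb on each side of the start of autosomal protein-coding genes, and over 56670 regions formed by merging the islands of the 4 libraries. The question was which promoters and regions carried the mark in both genotypes, in Ctrl alone or in cKO alone, and whether islands changed in width or in counts per kb.

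H2AK119ub1 is placed by Polycomb repressive complex 1 (PRC1), whose RING1 subunits are the ubiquitin ligases. KDM2B belongs to the variant complex PRC1.1, and its CxxC zinc finger binds unmethylated CpG-rich DNA and so brings the complex to CpG islands. PRC2 places the partner mark H3K27me3, and both marks lie over silent developmental regulators such as the Hox clusters in neural progenitors.

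The 6 promoters below show the DNA behind the results, with each CG in capitals. Otx2 and Pou4f2 lead the regions whose density was lower in cKO, Ptger3 and Sox6 are among the promoters wholly covered in both Ctrl libraries and free of islands in cKO, and Egfl8 and Cox8b among those with the opposite pattern. Apart from Otx2, these are the first genes of their rankings with a RefSeq start within 100 bases of the start used here. Each is read 5′ to 3′ along the gene, from 250 bases before to 50 after a RefSeq start (GRCm38.p6, the assembly behind mm10). The Otx2 start shown is 6175 bases from the start used for its promoter window.
Otx2, chr14:48667595-48667894, minus strand: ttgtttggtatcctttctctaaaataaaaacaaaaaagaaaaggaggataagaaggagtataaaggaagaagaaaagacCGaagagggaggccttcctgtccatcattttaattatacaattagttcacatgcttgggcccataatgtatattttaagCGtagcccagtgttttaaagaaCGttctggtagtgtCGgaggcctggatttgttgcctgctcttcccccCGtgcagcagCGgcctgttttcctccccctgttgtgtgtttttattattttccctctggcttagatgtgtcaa
Pou4f2, chr8:78436598-78436897, minus strand: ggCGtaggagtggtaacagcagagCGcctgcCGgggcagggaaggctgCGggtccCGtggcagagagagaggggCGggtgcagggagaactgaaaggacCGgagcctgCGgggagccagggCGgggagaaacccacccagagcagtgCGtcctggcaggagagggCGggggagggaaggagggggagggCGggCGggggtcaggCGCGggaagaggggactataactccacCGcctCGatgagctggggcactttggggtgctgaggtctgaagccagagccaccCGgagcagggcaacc
Ptger3, chr3:157566626-157566925, plus strand: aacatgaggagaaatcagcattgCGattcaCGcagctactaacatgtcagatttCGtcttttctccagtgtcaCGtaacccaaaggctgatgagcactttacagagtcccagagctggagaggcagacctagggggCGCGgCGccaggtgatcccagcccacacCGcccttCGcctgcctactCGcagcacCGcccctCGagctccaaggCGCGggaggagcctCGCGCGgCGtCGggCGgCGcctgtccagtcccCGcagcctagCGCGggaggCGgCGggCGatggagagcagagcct
Sox6, chr7:116038695-116038994, minus strand: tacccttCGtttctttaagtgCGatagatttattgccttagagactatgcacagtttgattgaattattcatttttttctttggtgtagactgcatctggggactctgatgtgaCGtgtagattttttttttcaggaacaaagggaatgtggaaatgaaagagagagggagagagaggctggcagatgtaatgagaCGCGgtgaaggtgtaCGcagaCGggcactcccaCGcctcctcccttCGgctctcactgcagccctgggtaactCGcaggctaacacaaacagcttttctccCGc
Egfl8, chr17:34615922-34616221, minus strand: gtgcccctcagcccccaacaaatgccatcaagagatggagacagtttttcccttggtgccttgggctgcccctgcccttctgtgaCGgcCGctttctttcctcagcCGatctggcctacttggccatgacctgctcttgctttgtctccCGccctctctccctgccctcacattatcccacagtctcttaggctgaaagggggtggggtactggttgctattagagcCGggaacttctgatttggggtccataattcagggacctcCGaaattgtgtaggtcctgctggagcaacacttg
Cox8b, chr7:140900397-140900696, minus strand: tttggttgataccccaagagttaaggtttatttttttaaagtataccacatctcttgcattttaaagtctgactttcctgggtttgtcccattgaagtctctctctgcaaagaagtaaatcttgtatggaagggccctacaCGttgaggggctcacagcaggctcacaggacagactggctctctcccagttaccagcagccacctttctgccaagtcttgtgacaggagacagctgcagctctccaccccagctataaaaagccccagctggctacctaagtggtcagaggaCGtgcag
These windows hold 6, 18, 27, 11, 6 and 2 CG, in that order. The median over the 15687 promoters with a RefSeq sequence was 15, with quartiles of 4 and 25. It was 22.5 for the 236 matched promoters with islands in Ctrl alone, and every one of them held at least 1 CG. It was 11 for the 231 matched promoters with islands in cKO alone.

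Libraries of a genotype differed more in size than the genotypes did. Islands covered 318.5 and 116.2 Mb in Ctrl and 173.9 and 308.5 Mb in cKO, and held 17315325, 4647174, 6026549 and 11491047 counts in the same order. Medians of island width lay at 4 and 3.6 kb for Ctrl and at 3 and 5.2 kb for cKO (exact permutation p = 1, two-sided, n = 2 and 2). With 2 libraries against 2, this test cannot go below 0.333. In density the genotypes did not overlap, though no such difference can pass this test. The counts are not scaled to depth, which is unknown here, so depth and enrichment cannot be told apart in counts per kb. Counts per kb of island came to 54.4 and 40 for Ctrl (47.2 ± 10.2, SD, n = 2) and 34.7 and 37.2 for cKO (36 ± 1.84, SD, n = 2; exact permutation p = 0.333, n = 2 and 2). Islands over 1.5 times the median density of their own library made up 7.06% and 2.28% of islands in Ctrl and 1.32% and 1.39% in cKO (exact permutation p = 0.333, n = 2 and 2). Ctrl 1, the library with the most counts, was the highest in both. Ctrl 2, the library with the fewest counts, was still above both cKO libraries.

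At the targeted gene, Kdm2b, islands covered 100% and 0% of the promoter in Ctrl and 0% and 24.45% in cKO. Islands do not show the deleted exon, so this does not check the labels.

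**Figure D1:**
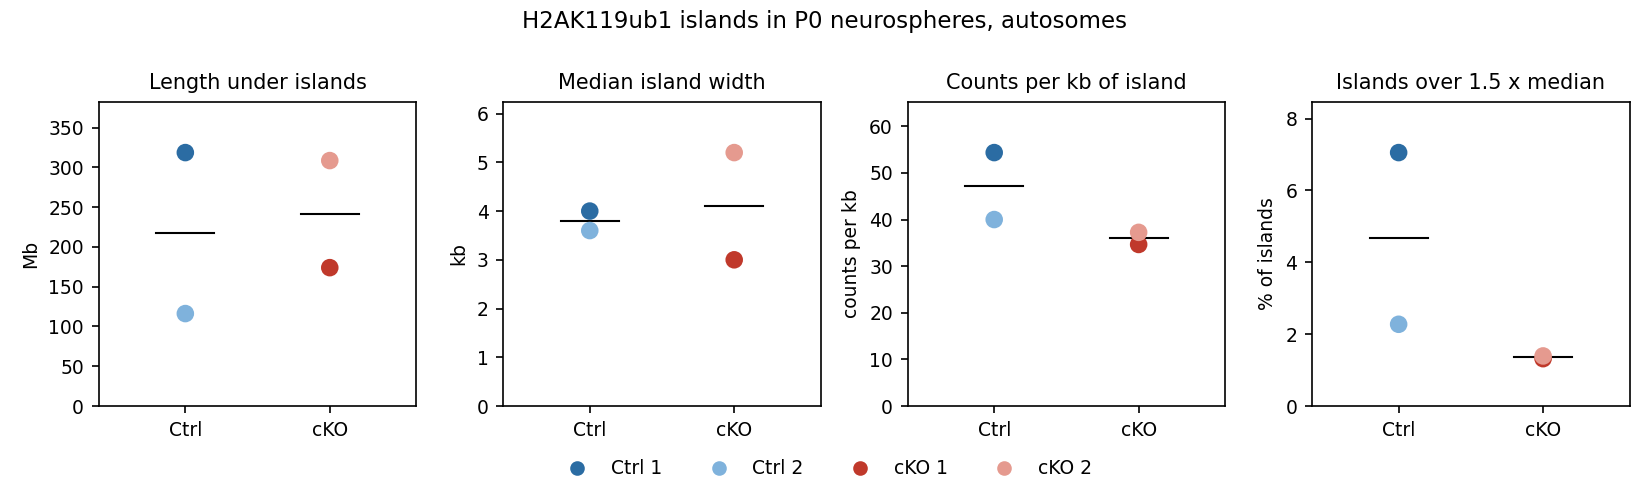
Length under H2AK119ub1 islands (Mb), median island width (kb), counts per kb of island and the share of islands over 1.5 times the library's median density (%) on autosomes, 1 point per library, with the group mean as a line. The genotypes overlap in length and width, while both cKO points lie below both Ctrl points in the 2 density panels. Counts per kb are not scaled to depth.

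With all 4 libraries, more promoters kept H2AK119ub1 than lost or gained it in both replicates. An island in all 4 libraries (kept) was found at 1473 promoters (7.08% of 20807), an island in both Ctrl and neither cKO library (lost) at 302 (1.45%), and the opposite (gained) at 305 (1.47%). No island was called at 10576 promoters, and 8151 showed other mixtures, the most common being an island in every library but Ctrl 2 (2230 promoters). This order and balance depended on single libraries. Without Ctrl 1, 1545 promoters were kept, 755 lost and 2535 gained, so that gained promoters outnumbered kept ones. Without Ctrl 2, 3703 were kept, 1564 lost and 377 gained. Without cKO 1 the counts were 1949, 463 and 1202, and without cKO 2 they were 1634, 778 and 786. These counts have no test with 2 libraries a group. Most of these calls were partial. The less covered of the replicates had a median of 30% of the window under islands at lost promoters and 29.2% at gained ones, and 78 and 71 of them passed 50% in both replicates.

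What the lost and gained promoters shared differed in CpG content, which the calls had not used. A promoter was counted as CpG-rich when GC made up over 50% of the 1 kb around its start and CpG occurred at over 0.6 of the frequency that its C and G content predicts, which held for 45.7% of all promoters. Of the lost promoters 206 of 302 (68.2%) were CpG-rich, of the gained ones 96 of 305 (31.5%) and of the kept ones 799 of 1473 (54.2%). When at least 50% of the window had to be covered, the shares were 58.1% of 198 lost and 5.32% of 94 gained promoters. The same order was seen library by library, where CpG-rich promoters made up 49.1% and 57.8% of promoters with an island in Ctrl and 44.8% and 45.9% in cKO (exact permutation p = 0.333, n = 2 and 2). Every lost promoter has an island in Ctrl 2, the library with the fewest such promoters (3152) and the highest CpG-rich share. Ctrl 1 was nearer to cKO 2 than to Ctrl 2 in that share. With each library left out in turn, 58.7% to 66.2% of lost and 36.1% to 42.1% of gained promoters were CpG-rich. Whether the CpG difference follows the number of islands in a library was not tested. These shares are descriptions, since promoters are not replicates. H3K27me3 islands came from separate libraries, which may share lysates with these. They lay in both Ctrl libraries at 83.0% of kept, 32.5% of lost and 25.9% of gained promoters, against 22.9% of all promoters.

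CpG-rich promoters with H3K27me3 in both Ctrl libraries numbered 1929. H3K27me3 was not required in cKO, a choice that may favour lower coverage there, which was not tested. H2AK119ub1 covered less of the window in both cKO than in both Ctrl libraries at 232 of them (12%), and more at 45 (2.33%). Over all promoters these counts were 729 (3.5%) and 467 (2.24%). At 263 of the 1929 promoters (13.6%) no library had an island, against 50.8% of all promoters, so these shares have unlike bases.

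The share of kept promoters ranged from all to none across the gene lists, against 7.08% of all promoters, and was not tested between lists. All 39 Hox genes, which set the body axis and lie silent in telencephalic cells, were kept, with mean coverage of 97.7% and 100% in Ctrl and 96.7% and 98.4% in cKO. Kept promoters numbered 11 of 14 for ventral telencephalon and GABAergic factors, 21 of 27 for mesoderm and endoderm factors, 13 of 19 for Wnt ligands, 8 of 13 for cortical hem and dorsal telencephalon factors and 8 of 16 for dentate and glutamatergic neurogenesis factors. Fewer were kept among Notch pathway genes (5 of 14), Wnt antagonists (3 of 13), Polycomb subunits (5 of 29), BMP pathway genes (2 of 15), Wnt receptors (1 of 15) and Wnt effectors (1 of 17). None was kept among 21 cytoplasmic ribosomal protein genes, 7 CDK inhibitors or 10 microglia and endothelial markers. Neural progenitor markers were kept at 4 of 12 promoters (Nr2e1, Nes, Hes5 and Msi1), astrocyte and oligodendrocyte markers at 2 of 9 and neuron markers at 1 of 7. A chromatin mark does not give transcript levels, so the identity of the cells could not be read from these markers.

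**Figure D2:**
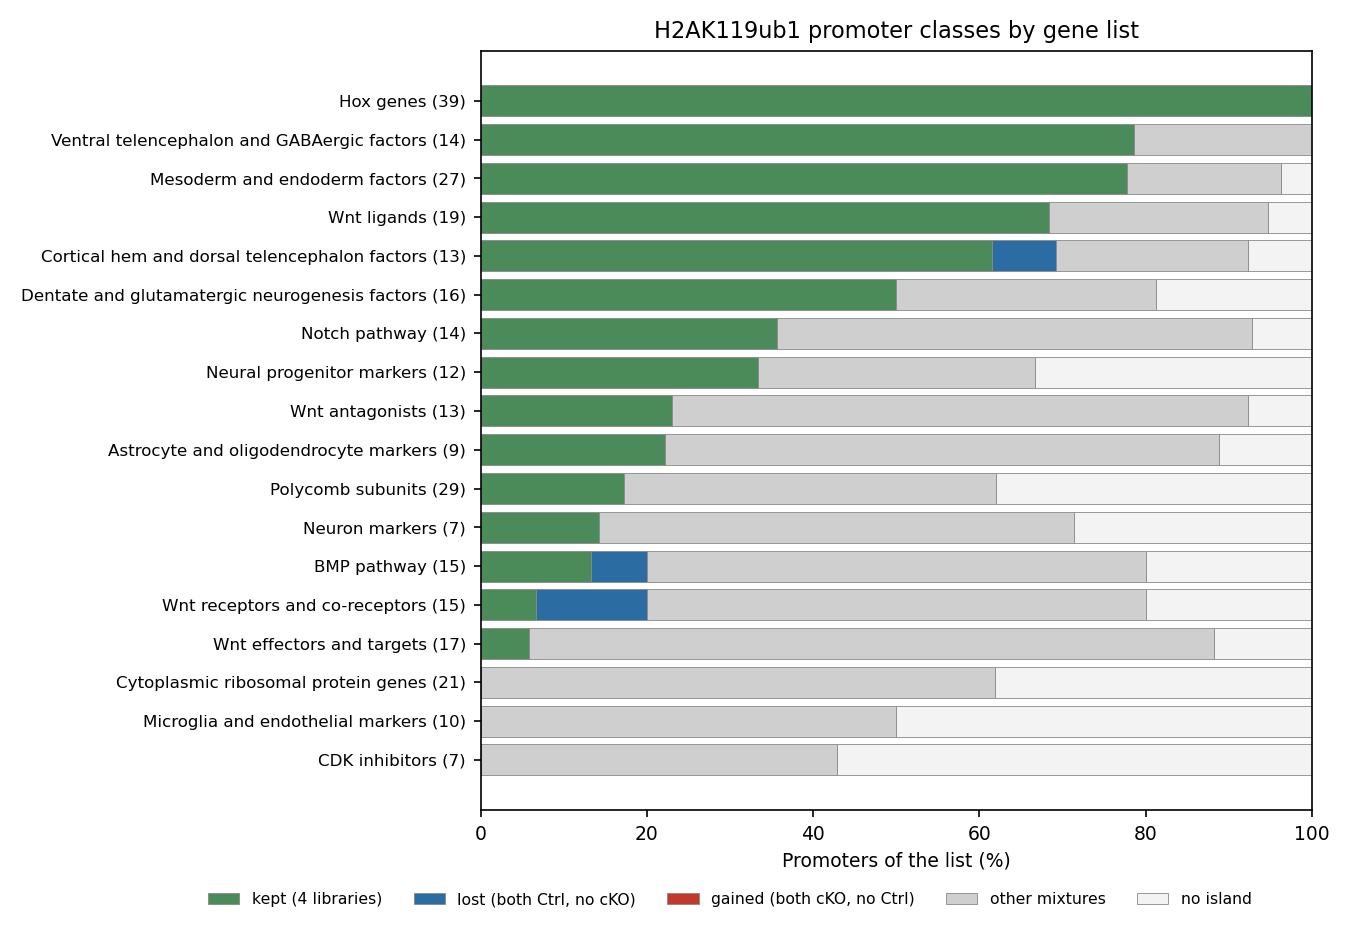
Share of the measured promoters of the gene lists described (%, number in brackets) by H2AK119ub1 class. Kept promoters fill the Hox bar and are absent from the bars of ribosomal protein genes, microglia and endothelial markers and CDK inhibitors, and no bar has a gained segment.

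Of the 312 genes on the lists, 4 were lost (1.28%) and 0 gained, against 1.45% and 1.47% of all promoters. Coverage was lower in both cKO than in both Ctrl libraries for 22 of the 312 (7.05%, against 3.5% of all promoters). It was higher for 1 (0.321%, against 2.24%), the endoderm factor Sox17. These shares have unlike bases, since no library had an island at 16.3% of the list genes but at 50.8% of all promoters. A promoter without an island in any library cannot be lower. The 4 lost promoters were those of Gli3, Fzd5, Id3 and Fzd4. Gli3, a transcription factor of the Hedgehog pathway, had islands over 80.85% and 90.85% of its promoter in Ctrl and none in cKO. Fzd5, a Wnt receptor, had 86.25% and 28.75% in Ctrl. Id3, an inhibitor of bHLH factors and a BMP target, had 100% and 2.4%, and the receptor Fzd4 had 1.15% in each Ctrl library, so that both rest on the edge of an island in at least 1 of them.

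Other regulators kept an island in every library but with less of the promoter under it in cKO. Insm1, a zinc finger factor of neuronal precursors, had 100% and 88% in Ctrl and 28% and 18% in cKO. Hes1, the Notch effector that holds progenitors undifferentiated, had 100% and 65% in Ctrl and 25.4% and 15.4% in cKO. The dorsal telencephalon factor Lhx2 had 98% and 100% in Ctrl and 50% and 65% in cKO. Msx2 had 100% in both Ctrl libraries and 40% and 78.2% in cKO. These 4 genes were picked from the 22 list genes with lower coverage in both cKO libraries (7.05% of 312). Their groups therefore do not overlap in coverage by the way they were chosen, and none of the differences can pass the exact test. The islands themselves were shorter in cKO at Hes1 and Msx2 but not at Insm1, at 7.0 and 9.0 kb in Ctrl against 9.6 and 7.8 kb, nor at Lhx2, at 6.0 and 7.4 kb against 7.8 and 11 kb.

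The genes the study followed differed from each other in promoter coverage. The paper reported lower H2AK119ub1 peaks at these promoters in P0 hippocampal tissue, except for Lef1, which it showed in neurospheres. The values here are from neurospheres. Lef1, the nuclear effector of Wnt signalling, had an island of 14.8 and 15.4 kb at its promoter in Ctrl, 4.6 kb in cKO 1 and none in cKO 2. At the neighbouring Wnt6 and Wnt10a promoters islands in Ctrl were 33.0 and 15.6 kb long. In cKO they were 6.2 and 4.6 kb long at Wnt6 but 9.6 and 24.0 kb at Wnt10a. Neurod1, a bHLH factor of granule neurons, had islands in all 4 libraries, at 89.2 and 47.3 counts per kb in Ctrl and 31.6 and 39.5 in cKO. Wnt7b was covered over 93.2% and 6.8% in Ctrl and 50% and 80% in cKO. Wnt3 and Eomes, the latter the marker of intermediate progenitors, had islands in Ctrl 1 and cKO 2 only. Sfrp2, a secreted Wnt modulator, had them in every library but cKO 1, and Pax6, a radial glia factor, in every library but Ctrl 2. Coverage in both cKO libraries was below both Ctrl libraries at Lef1 and Wnt6, against 3.5% of all promoters, and overlapped at the other followed genes. Each followed gene held an island in some library, while 50.8% of all promoters held none and could not be lower. Both cKO libraries had lower relative density than both Ctrl libraries in the kept regions of Wnt6 with Wnt10a, Wnt9b with Wnt3, Neurod1 and Pax6. Such lower density was seen at 20.4% of all kept regions, and at 37.3% of those with a CpG-rich promoter and H3K27me3 in both Ctrl libraries. At Wnt7b, Sfrp2, Lef1 and Eomes the groups overlapped. The log2 fold changes of counts per kb ran from -0.55 at Neurod1 to -0.05 at Pax6 and Sfrp2, all below 0, and none passed the test of density. Values below 0 made up 47.3% of all kept regions and 73.6% of those with a CpG-rich promoter and H3K27me3. The sign turned at Lef1 without cKO 1 (0.19) and at equal covered length (0.02). It also turned at Eomes without Ctrl 1 (0.08) and without cKO 2 (0.19).

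Outside the lists, 10 lost promoters were chosen by their coverage in the less covered Ctrl library. Ptger3, which encodes a prostaglandin E receptor, had islands of 6.0 and 6.4 kb in Ctrl at 51.8 and 37.2 counts per kb, over 100% of its promoter. Sox6, a transcription factor of neural and muscle lineages, had islands of 7.4 and 8.2 kb, also over the whole promoter. The ion pump gene Atp12a had islands of 8.0 and 9.4 kb, and the lipid transporter gene Mfsd2b had islands of 14.8 and 7.2 kb. Cobl, Bves, Mecom, Pdlim1, Smad9 and Phactr2 followed, with 90.3% or more of the promoter covered in each Ctrl library. Mecom encodes a zinc finger transcription factor and Smad9 a transducer of BMP signals. In all 10, neither cKO library had an island in the window. When only the densest islands were used, so that each library covered the same length, the mean difference in coverage went to -50 percentage points at 9 of the 10 and to -47.6 at Mecom, so these calls did not hold in both Ctrl libraries. Of these 10 promoters, 7 were CpG-rich, and H3K27me3 islands were present in all 4 neurosphere libraries of that mark at 6 (Ptger3, Atp12a, Cobl, Bves, Mecom and Phactr2).

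The 10 gained promoters were chosen the same way. Egfl8, an EGF-like secreted protein, had islands of 11.4 and 16.0 kb in cKO at 35.6 and 39.9 counts per kb. Complement factor B (Cfb), on the same chromosome 17, had 9.0 and 14.4 kb. Cox8b, a muscle subunit of cytochrome c oxidase, had 5.0 and 5.8 kb at 34.0 and 40.2 counts per kb. The others were Sqor, Ccl19, Cckar, Sntg2, Uri1, C8b and the myoglobin gene Mb. At equal covered length the difference went to 0 at Sqor, Cckar, Sntg2 and Uri1 and to between 43.4 and 47.8 percentage points at Ccl19, C8b and Mb. Of these 10 promoters 1 was CpG-rich (Sqor), and H3K27me3 was present in all 4 libraries at 2 (Cckar and Mb). Density was low at some of them: 28.5 and 26.7 counts per kb at Sqor, against medians over all islands of 34.3 in cKO 1 and 34.6 in cKO 2.

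**Figure D3:**
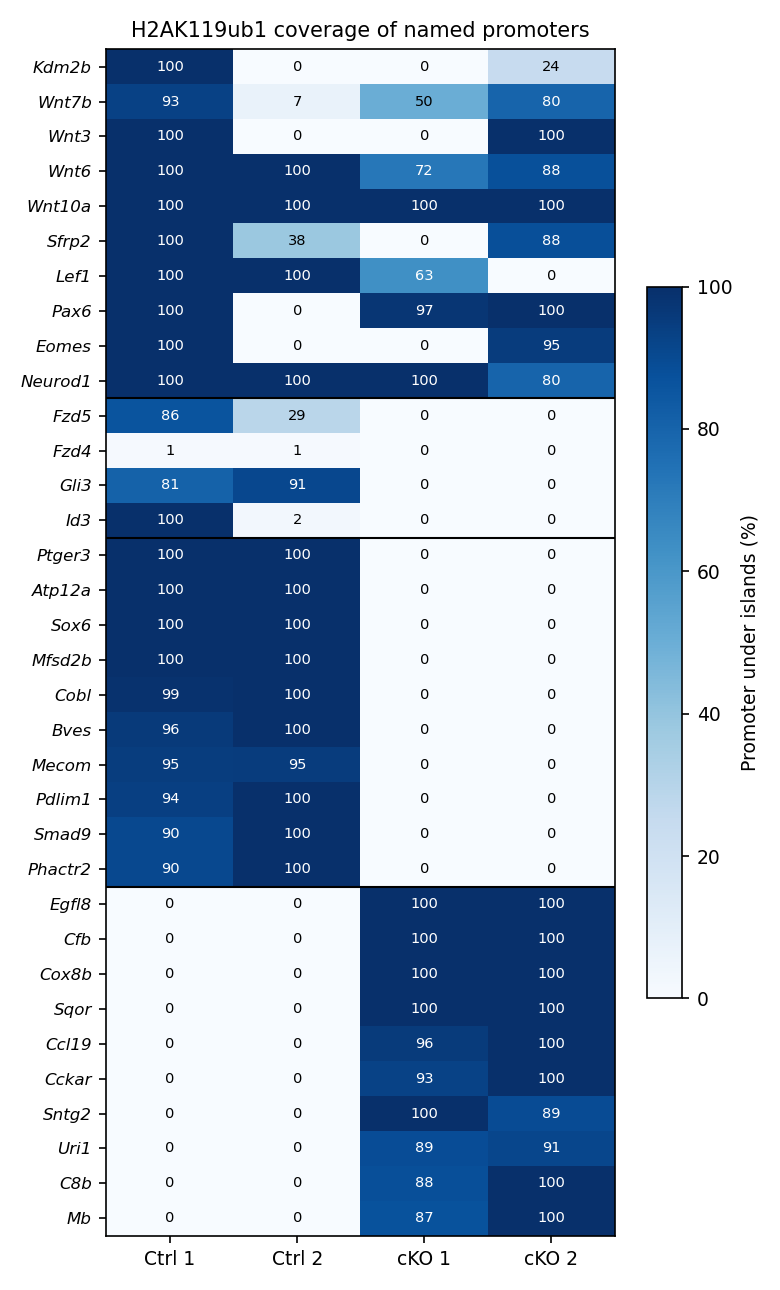
Share of the promoter (%) under H2AK119ub1 islands in each library, with 1 row per gene and lines between the followed genes, the lost genes of the lists, the lost genes outside them and the gained genes. Followed genes vary within a genotype, and the lost and gained rows are at 0 in both libraries of the opposite genotype by the way they were chosen.

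Few of the lost or gained promoters were so in other libraries. Of the 302 lost promoters, 12 were also lost in neurosphere H3K27me3 (3.97% of these and 3.65% of the 329 lost there, where 1.58% of all promoters were lost), among them Fgf9, a fibroblast growth factor. In hippocampal tissue of the same age and genotypes, 5 were also lost for H2AK119ub1 (1.66% of these and 9.62% of the 52 lost there, with a background of 0.25%), namely Cadps2, Col19a1, Dpy19l2, Pag1 and Yap1, the last a Hippo pathway coactivator. Of the 305 gained promoters, 8 were gained in H3K27me3 (2.62% of these and 3.42% of the 234 gained there, background 1.12%) and 2, Prss43 and Wap, in hippocampus (0.656% of these and 2.13% of the 94 gained there, background 0.452%).

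Over the genome, 6052 merged regions were kept (10.7% of 56670), 1589 lost (2.8%) and 2306 gained (4.07%). Kept regions were long, with a median of 18.6 kb, and 36.9% of them held a promoter and 72.5% an H3K27me3 island in both Ctrl libraries. Lost regions had a median of 4.6 kb, of which 14.7% held a promoter, 37.8% lay in gene bodies only and 47.5% between genes. Gained regions had a median of 5.8 kb, with 13.1%, 49.0% and 37.9%. Where a promoter was present, a CpG-rich one was among them in 67.0% of lost, 38.7% of gained and 64.8% of kept regions. H3K27me3 lay in both Ctrl libraries at 37.5% of lost and 22.3% of gained regions. The longest lost region in the smaller replicate measured 9.8 kb, while 16 gained regions reached 10 kb in both cKO libraries and the longest 25 kb. These lengths have unlike bases. A lost region needs an island in Ctrl 2, whose islands covered 116.2 Mb, against 173.9 and 308.5 Mb in cKO. Kept regions join islands of all 4 libraries.

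In the kept regions, counts per kb were tested with edgeR's quasi-likelihood test, with the called length of each library in the offset. The region of Otx2, a homeobox factor of the anterior brain and choroid plexus, was the 1 of 6052 regions to pass an FDR of 0.05 in the lower direction (0.0165%), and 0 passed in the higher direction (0 also with DESeq2). At an unadjusted p under 0.05, 198 were lower (3.27%) and 151 higher (2.5%). The Otx2 region (chr14:48647601-48680000) had 88.6 and 60.7 counts per kb in Ctrl and 33.5 and 35.8 in cKO. Divided by the median of its library over kept regions, the density came to 1.79 and 1.58 in Ctrl against 0.97 and 1.00 in cKO. Otx2 fell by 0.73 on the log2 scale (SE 0.12, edgeR adjusted p = 0.00972). Its islands took up 28.8 and 32.4 kb in Ctrl against 17.6 and 8.0 kb in cKO, a difference that did not pass the width test. The Otx2 call did not hold without Ctrl 1, cKO 1 or cKO 2 (edgeR adjusted p = 0.139, 1.00 and 0.269, log2 fold changes -0.66, -0.73 and -0.76), nor with limma (adjusted p = 0.896).

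The next promoter-holding regions by p were those of Pou4f2, Cyp26c1 with Cyp26a1, Pou4f1 and Gbx2, none of which passed (edgeR adjusted p = 0.24 for each). Without Ctrl 2 all 4 passed (edgeR adjusted p from 2.35e-12 at Pou4f1 to 5.8e-06 at the Cyp26 region), and Pou4f1 also passed without cKO 2 (edgeR adjusted p = 0.0164), while none did without Ctrl 1 or cKO 1. Pou4f1 and Pou4f2 are POU homeobox factors of sensory neurons and retinal ganglion cells, Gbx2 patterns the hindbrain, and the Cyp26 enzymes degrade retinoic acid. Pou4f1 had 127 and 59.9 counts per kb in Ctrl and 39.2 and 49.9 in cKO, a log2 fold change of -0.66 (SE 0.15). Pou4f2 had 99.1 and 53.0 in Ctrl and 35.5 and 39.9 in cKO, while its called length, 8.2 and 13.6 kb against 12.4 and 12.6 kb, overlapped. Gbx2 had 93.5 and 52.5 against 33.9 and 41.6, and the Cyp26 region 82.1 and 48.9 against 31.2 and 38.2. All 5 held a CpG-rich promoter and H3K27me3 in both Ctrl libraries. In the higher direction, the smallest p belonged to Slc25a37 with Synb, Vwa5b1, Pkd1l1, Acoxl and Tvp23a, whose log2 fold changes lay between 0.29 and 0.37 and whose adjusted p was 0.751 or above. Their Ctrl densities were all below the median of their libraries, from 0.75 to 0.94 of it.

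**Figure D4:**
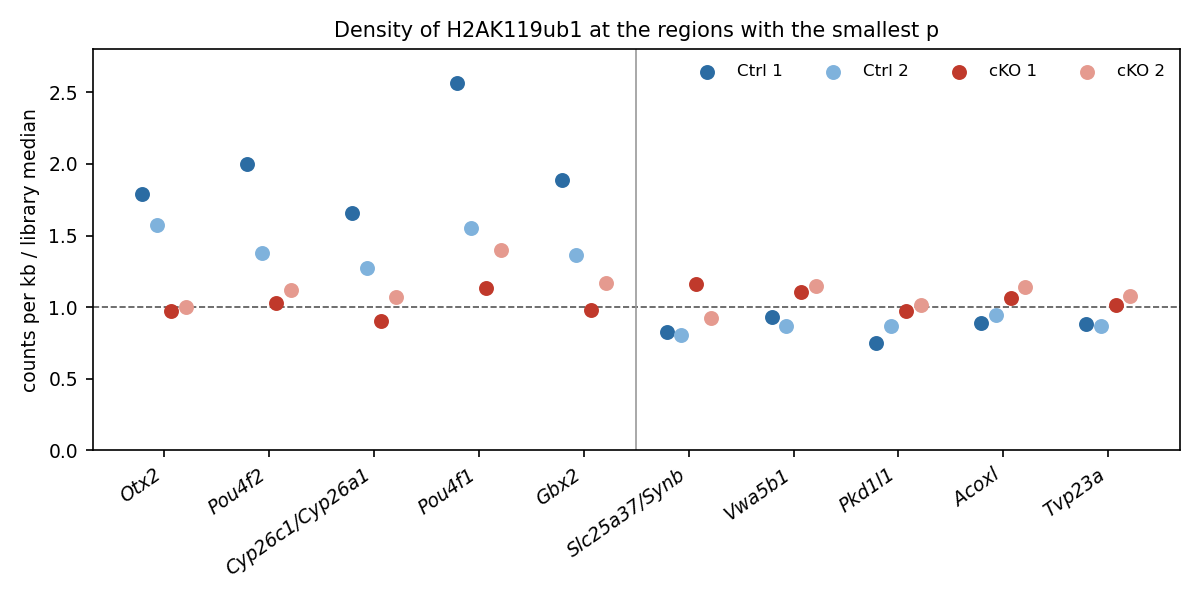
Counts per kb of H2AK119ub1 islands divided by the median of the library over kept regions, for the 5 promoter-holding regions with the smallest p in each direction, 1 point per library (lower in cKO on the left, higher on the right). Ctrl 1 stands highest at each region on the left and all points on the right lie between 0.75 and 1.16, and of the 10 regions Otx2 alone passed the test.

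In neurosphere H3K27me3, Otx2 and Gbx2 both fell when its libraries were tested the same way (270 of 11129 regions lower, 2.43%, and 61 higher, 0.548%). At Otx2, H3K27me3 reached 159 and 152 counts per kb in Ctrl but 57.9 and 39.0 in cKO, a log2 fold change of -1.31 (edgeR adjusted p = 1.04e-05). At Gbx2 it reached 143 and 116 in Ctrl but 42.6 and 40 in cKO, a log2 fold change again of -1.31 (edgeR adjusted p = 2.96e-07). The Cyp26 region passed too, at -0.55 (edgeR adjusted p = 0.00356), while Pou4f1 and Pou4f2 did not (-0.05 and -0.10). The paper describes a lysate divided between the marks for P0 hippocampi. The neurosphere libraries of the marks may therefore share cells, which the labels do not say. In hippocampal tissue, H2AK119ub1 at Otx2 had 28.5 and 40.4 counts per kb in the Ctrl pair and 28.1 and 40 in the cKO pair, a log2 fold change of -0.17 (edgeR adjusted p = 0.999), and 0 of 2750 regions passed. Whether the change differed between neurospheres and tissue was not tested.

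The regions that held a CpG-rich promoter and H3K27me3 in both Ctrl libraries had lower relative density in cKO as a group. H3K27me3 was not required in cKO, a choice that may favour lower values there, which was not tested. Among these 1157 regions, the log2 fold change of counts per kb was negative in 851 (73.6%), with a median of -0.09. It was negative in 41.1% of the other 4895 regions, and the median over all was 0.01. Relative density in the 1157 regions had medians of 1.22 and 1.10 in Ctrl and 1.03 and 1.10 in cKO, so that cKO 2 was level with Ctrl 2. Both cKO libraries lay below both Ctrl libraries at 431 of the 1157 (37.3%) and above them at 64 (5.53%), against 20.4% and 14.3% of all kept regions. Without Ctrl 1 the median was -0.04, with 59.8% negative against 47.4% of the others, and at equal covered length it was also -0.04. Regions with no promoter had medians above 0, 0.04 with H3K27me3 and 0.07 without.

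**Figure D5:**
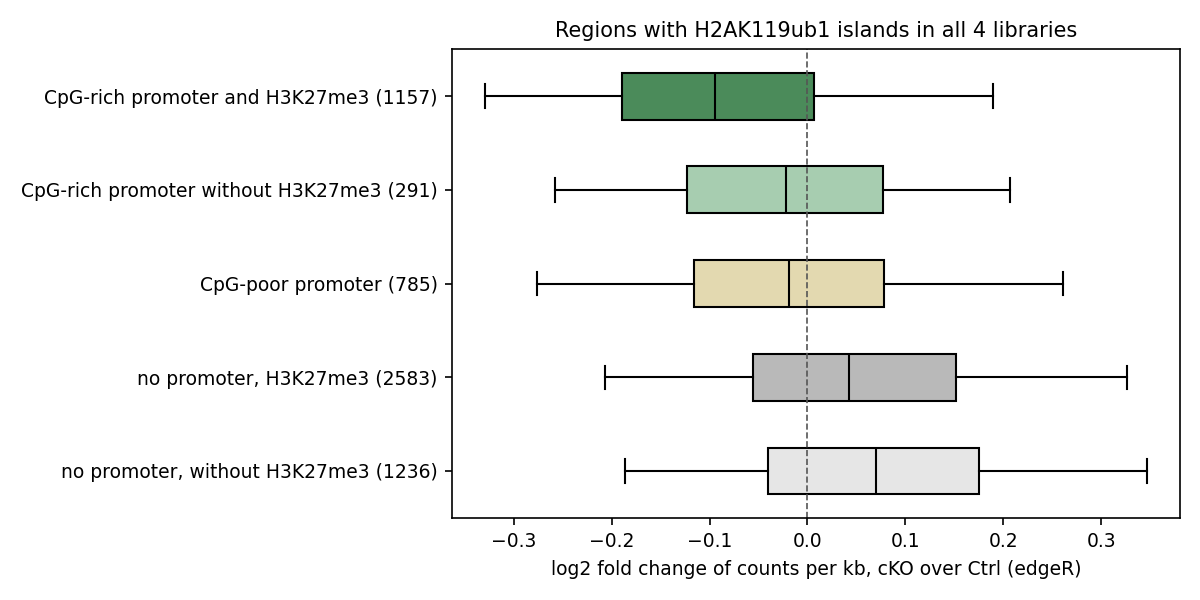
Log2 fold change (cKO over Ctrl) of counts per kb in kept regions by promoter type and H3K27me3 in both Ctrl libraries, with the number of regions in brackets. Boxes span the quartiles with the median as a line, whiskers reach the 5th and 95th percentiles, and the box of CpG-rich promoters with H3K27me3 lies mostly to the left of 0.

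Lower relative density in cKO was also seen in several gene lists, which were not tested against each other. Regions of the ventral telencephalon and GABAergic factors had medians of 1.52 and 1.24 times the library median in Ctrl against 1.14 and 1.17 in cKO. The groups did not overlap, with cKO lower, at 9 of these 10 regions. Over all kept regions this share was 20.4%, and over those with a CpG-rich promoter and H3K27me3 in both Ctrl libraries it was 37.3%. The 5 Hox regions had 1.96 and 1.59 against 1.32 and 1.52, and 4 of them did not overlap. The mesoderm and endoderm factors had 15 of 20 such regions, the Wnt ligands 7 of 11 and the dentate and glutamatergic factors 8 of 11. Shares were lower in the other Wnt lists, with 1 of 4 regions for Wnt receptors (and 1 higher in cKO), 2 of 8 for Wnt antagonists and 2 of 6 for Wnt effectors. CDK inhibitors had 1 of 3, astrocyte and oligodendrocyte markers 1 of 3 and BMP pathway genes 2 of 2. Among the 7 Polycomb subunit regions, the 2 of ribosomal protein genes and the 1 of neuron markers none was of this kind. Neural progenitor markers had 5 of 8, Notch pathway genes 4 of 7 and cortical hem and dorsal telencephalon factors 6 of 9. No region of these lists passed an FDR of 0.05 except that of Otx2, a member of the cortical hem and dorsal telencephalon list.

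Neither counts summed over a whole region nor called length passed the test in any kept region with the tools used for the main result. With edgeR's test of counts, 0 of 6052 regions passed an FDR of 0.05, with 53 lower (0.876%) and 46 higher (0.76%) at an unadjusted p under 0.05, and with DESeq2 15 were lower and 17 higher. Without Ctrl 1, edgeR called 52 lower and 503 higher. With limma on log2 length, 0 passed, with 40 lower (0.661%) and 33 higher (0.545%) at an unadjusted p under 0.05. The smallest p for both lower counts and lower length was that of Phactr2, whose islands took up 11.8 and 20.8 kb of its region in Ctrl against 1.6 and 2.2 kb in cKO (width log2 fold change -3.06, limma adjusted p = 1.00). Adrb1, the beta-1 adrenergic receptor gene, followed with 13.6 and 9.0 kb against 1.8 and 2.0 kb, and Cxcr4, the chemokine receptor that guides dentate progenitors, had 18.8 and 15.2 kb against 3.0 and 3.8 kb. Tcf7l2, a Wnt effector, had 12.8 and 14 kb against 1.6 and 4.8 kb. In the other direction, the heart and muscle gene Cox6a2 had 1.8 and 0.6 kb in Ctrl against 5.4 and 6.2 kb in cKO, and Nupr1, a stress response gene, had 5.4 and 4.0 kb against 12 and 20.4 kb. Tmem254c had 3.8 and 4.2 kb against 11.6 and 14.2 kb, but it has near-identical neighbours between which reads could be split. These 7 regions were chosen for their small p, and none passed the test. Given the spread between libraries, a lack of calls in counts or width does not show a lack of change.

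The widest kept regions were long blocks, often of several genes. The first, around Gse1 and Cox4i1 (chr8:120196001-120714000), had 509.8 and 327.8 kb under islands in Ctrl against 403.0 and 505.6 kb in cKO. The block with Prdm16, a zinc finger regulator of neural stem cells, had 367.0 and 276.4 kb in Ctrl against 300.0 and 362.6 kb in cKO. At the block of Tle3, a Groucho corepressor, islands took up 318.8 and 320.2 kb in Ctrl against 268.6 and 316.0 kb in cKO. Width overlapped between genotypes at the first and second of these, and neither width nor density passed the tests at any of the 3.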

How the data were processed

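Chromatin of P0 neurospheres was digested with micrococcal nuclease and sonicated, and H2AK119ub1 was immunoprecipitated in 2 Ctrl and 2 cKO samples. The authors trimmed reads with cutadapt, aligned them to mm10 with Bowtie2 2.4.5, removed duplicates and called islands against input with SICER (200 bp windows, 600 bp gaps, FDR 0.01). The SICER and cutadapt versions are not given in the sources used here. The deposited values are raw counts of reads per island, not scaled to depth. A place outside islands has an unknown count, and the sum in islands is not the depth of a library, which is unknown here.

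Islands on 19 autosomes were laid over gene starts of GENCODE release M21. An overlap of 1 base made a call. Counts in kept regions were tested with edgeR 4.0.16 (quasi-likelihood, TMM), with called length in the offset for counts per kb, and log2 width with limma 3.58.1, in R 4.3.3, with Benjamini-Hochberg adjustment. DESeq2 1.42.0 was an alternative. Single values were compared with exact two-sided permutation tests. Named genes were Kdm2b, 9 genes the study followed, up to 4 lost or gained members of each list, 10 lost and 10 gained others ranked by the lower coverage, the 5 regions of smallest p per test and direction, and the 5 widest. Insm1, Hes1, Lhx2, Msx2 and Sox17 were chosen after their values were seen. The members and lists were chosen with earlier results of these data known. The tests were tried on simulated data. At the spread between these libraries, the tests of summed counts and of width missed nearly all or all planted changes. Other settings were island length, window, coverage, equal covered length, normalization, filter, replicate block and leaving out each library. The result of 1 gene list is not reported here.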

Additional observations from a re-analysis of the deposited data

How the results depend on the processing

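Coverage, width and the number of calls depended on single libraries. With each library left out in turn, the log2 ratio of cKO over Ctrl ran from -0.40 to 1.05 for covered length (0.15 with all), being negative without Ctrl 2 (-0.40) and without cKO 2 (-0.32), from -0.035 (without Ctrl 2) to 1.01 for the number of islands, from -0.34 (without cKO 2) to 0.45 for median width, from -0.60 to -0.15 for counts per kb and from -2.38 to -0.75 for the share of dense islands. Median width was also negative with islands of at least 2 kb (-0.033). In these fits kept promoters ran from 1545 to 3703, lost from 463 to 1564 and gained from 377 to 2535, with CpG-rich shares of 58.7% to 66.2% of lost and 36.1% to 42.1% of gained ones. Kept regions ran from 6672 to 12127, lost from 2549 to 13660 and gained from 2916 to 10724. Requiring more of an island left 199 gained promoters and 1440 gained regions. Equal covered length left 811 kept and 194 lost promoters and 1540 kept, 515 lost and 1192 gained regions. Coverage of at least 50% left 784 kept, 198 lost and 94 gained promoters (CpG-rich 58.1% of lost and 5.32% of gained) and 1142 kept regions. With 1 kb on each side of the start, 23.8% of gained promoters were CpG-rich and 21 CpG-rich H3K27me3 promoters had higher coverage. The cause of these shifts was not tested.

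The regions with lower counts per kb numbered 0 at equal covered length and with limma, and 0 to 170 with a library left out, the most without Ctrl 2. Those with higher counts per kb ran from 0 to 42. Summed counts gave 15 lower and 17 higher regions with DESeq2, and 0 to 52 lower and 0 to 503 higher with a library left out, the most without Ctrl 1. Width gave 0 in all of these. A lone library was assumed to vary like the other group. The replicate numbers share only a label: deviations of same-numbered libraries had r = -0.325, and the replicate block gave 3 lower regions for counts per kb (Otx2, Pou4f1 and Pou4f2) and 0 for the other tests. The crossed pairing, added after seeing the data, gave 263 lower and 22 higher regions. The median log2 fold change of CpG-rich H3K27me3 regions stayed negative with any library left out, from -0.15 to -0.04.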

Other observations

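Chromosome X, left out of the comparison, held 2879 and 2495 H2AK119ub1 islands in Ctrl and 18 and 992 in cKO. In hippocampal tissue it held 331 and 13 in Ctrl and 10 and 46 in cKO.

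Neurod1 and Lef1 had the smallest H3K27me3 p among the followed genes with 1 tested region of that mark. Of the others, Wnt6 with Wnt10a passed for H3K27me3 (log2 fold change -0.44, edgeR adjusted p = 0.0226). Eomes (-0.33, edgeR adjusted p = 0.133) and Sfrp2 (-0.13, edgeR adjusted p = 0.839) did not. In the region of Neurod1, H3K27me3 counts per kb fell by 0.83 on the log2 scale (edgeR adjusted p = 7.83e-05), while H2AK119ub1 had a log2 fold change of -0.55 (edgeR adjusted p = 0.451). In the region of Lef1, H3K27me3 fell by 0.93 (edgeR adjusted p = 5.5e-05), while H2AK119ub1 had -0.14 (edgeR adjusted p = 0.928). Summed H2AK119ub1 counts at Lef1 had a log2 fold change of -1.78 and called length one of -2.01, neither of which passed. The difference between the marks was not tested.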
